A study of Mus musculus with 4 samples.

Results

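The caspases, the Bcl2 family and the regulators around them were followed through 32 h after critical oxidative stress (cOS) in mouse fibroblasts. The members were 34 genes taken by their gene name in the array annotation, out of 30175 gene names on the array, and they were represented by 48 of its 39429 probes. By their textbook roles, 8 members were classed as pro-survival, 20 as pro-death and 6 as neither. Each gene is given by its brightest probe, and other probes of the same gene are named where they differ.

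Apoptosis is run by a balance of proteins that are mostly present before a death signal arrives. In the mitochondrial route, BH3-only proteins either block the protective Bcl2 proteins or activate the pore-formers, cytochrome c leaks from the mitochondria, and the Apaf1 scaffold activates caspase-9. In the death receptor route, Fadd and caspase-8 assemble below receptors such as Fas, and a blocked caspase-8 leaves Ripk1 and Ripk3 free to drive necroptosis. Strong oxidative stress is a known trigger of apoptosis and necrosis in cultured fibroblasts.

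The cells were NIH-3T3:Per2-Luc, a mouse fibroblast line that carries a luciferase reporter driven by the Per2 promoter in every condition. The cOS-pulse was 5 mM H2O2 for 10 min, and RNA was hybridized at 4 h, 20 h and 32 h after it, with 1 one-color array per time. The control received 0 mM H2O2, and its label places it at 4 h, so 20 h and 32 h had no untreated array of their own hour. According to the paper, the control received a change to fresh medium, which it describes as a weak resetting stimulus in comparison. All 3 comparisons with the control share this 1 control array, and since each condition had 1 array on the same slide, array and condition cannot be told apart.

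Without replicates no test could be made and no p-value is given, and the precision is limited by the number of arrays. A level is the log2 signal of a probe minus the 75th percentile of its array, so it compares arrays for 1 probe and not 1 gene with another. A log2 ratio is the difference of 2 such levels, given with the error that the scanner software assigned to the spots (median 0.20), which does not cover differences between cultures. A probe counted as detected where it was flagged well above background, which held for 52.7% to 59.1% of the probes of an array. All 10 fibroblast markers were detected on every array, while the macrophage markers Ptprc, Lyz2 and Emr1 were detected on none, the other 4 macrophage markers were detected on all, and 6 of 9 keratinocyte markers were detected on none.

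Of the 34 members, 31 were detected on all 4 arrays. The other 3, the BH3-only genes Bik and Hrk and the inflammatory caspase Casp1, were too dim on every array to count as detected, and no ratio was taken for them. At 4 h after cOS-pulse, 11 of the 31 stood above the control and 20 below it, against 11788 above and 6718 below among all gene names. The latter include 2700 gene names detected on only 1 of the 2 arrays and entered as bounds, while all 31 members were detected on both. Only Bcl2l11 and Birc3 were at least 2-fold higher, which is 6.45% of the tested members beside 11.0% of all gene names. In the other direction, Bmf, Casp8, Bok, Birc2, Endog and Casp6 were at least 2-fold lower, which is 19.4% beside 8.21% of all gene names. These shares of all gene names count bounds. Among the 15806 gene names detected on both arrays, like the members, 1304 were at least 2-fold higher and 1287 at least 2-fold lower. In RNA of a whole culture, a loss of cells that held a transcript and less of it per cell cannot be told apart.

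These counts moved with the scaling between arrays. The median of all detected probes at 4 h lay at 0.17 with the 75th percentile, at -0.19 with scaling by the median, at -0.23 with the spike-in controls and at -0.11 without scaling. With the median 1 member was at least 2-fold higher and 13 were lower, beside 5.93% and 14.8% of all gene names, and with the spike-in controls the counts were the same, beside 5.62% and 15.8%. Without scaling 1 was higher and 11 lower, beside 6.78% and 12.9%. With the 75th percentile of the detected probes 1 was higher and 9 lower, beside 8.73% and 10.1%, and with quantile normalization 2 were higher and 8 lower, beside 8.06% and 11.0%. With normexp background correction Birc3 and Endog no longer passed, so that 1 was higher and 5 lower, beside 6.88% and 5.02%. The side of the control at 4 h was the same under all 5 other scalings for 27 of the 31 members, and the exceptions were Bid, Apaf1, Casp4 and Casp14. At 20 h it was the same for 24 and at 32 h for 26, and the exceptions there had ratios within 0.23 of 0.

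**Figure D1:**
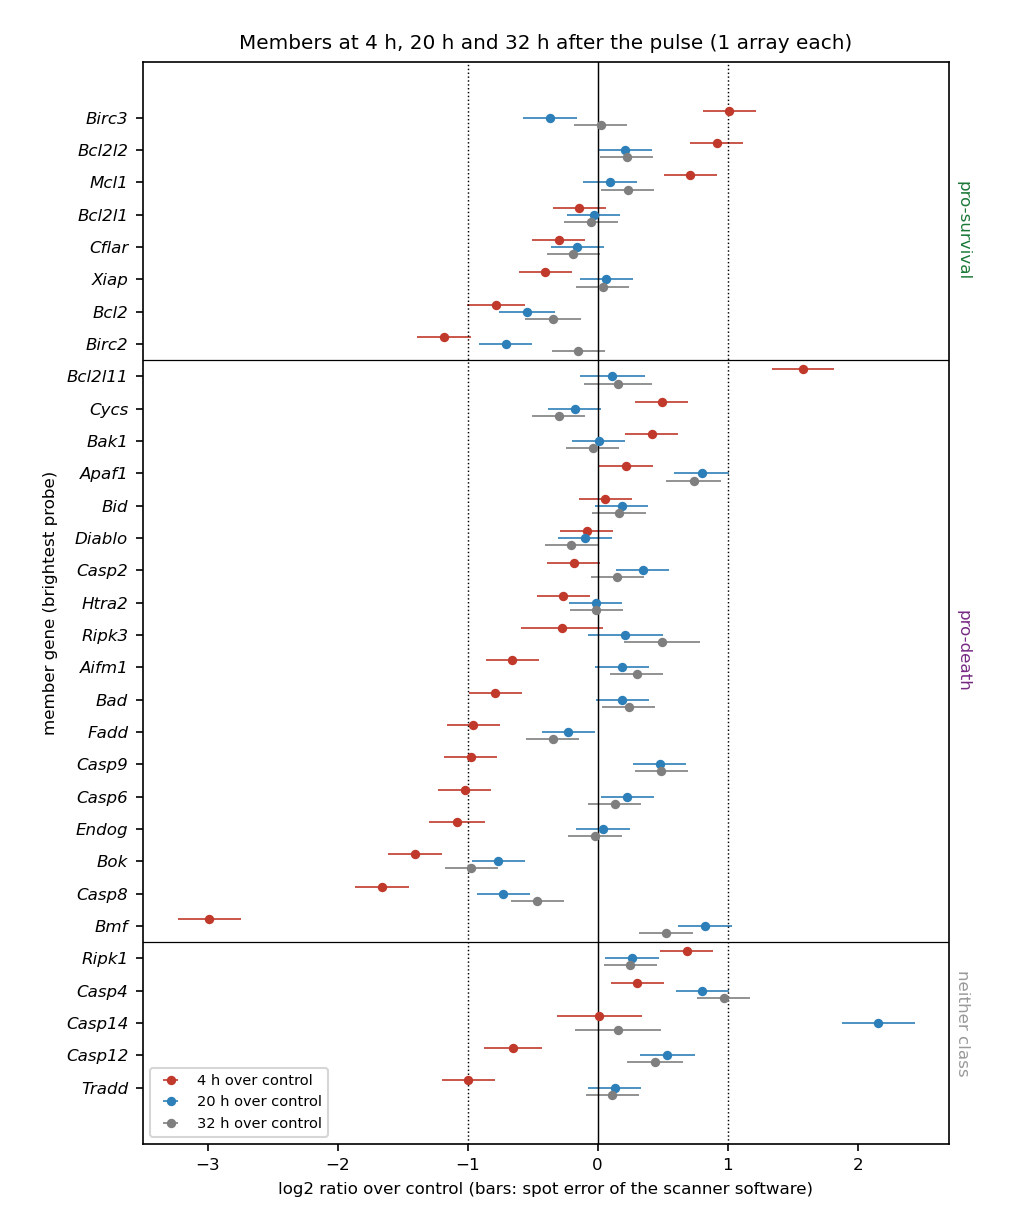
Log2 ratio over the control (x axis) for the 31 detected members (y axis), with 1 point for each of 4 h (red), 20 h (blue) and 32 h (grey), bars for the scanner's spot error and dotted lines at 2-fold. The red points spread from -2.99 (Bmf) to 1.58 (Bcl2l11), while most blue and grey points lie near 0, apart from Casp14 at 20 h (2.16).

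At a threshold of 1.5-fold, 5 members were higher at 4 h and 13 lower, beside 24.3% and 16.2% of all gene names. The 31 members had a median log2 ratio of -0.27 and all gene names one of 0.17. The pro-survival members had a median of -0.22 over 8 genes, with 1 at least 2-fold higher and 1 lower. The pro-death members had -0.47 over the 18 that were detected, with 1 at least 2-fold higher and 5 lower, and 13 of the 18 stood below the control. By 2-fold that is 5.56% and 27.8% of the pro-death members, beside the 11.0% and 8.21% of all gene names. The pro-survival median thus lay 0.24 above the pro-death median at 4 h. Spots of Bmf and Bcl2l1 on the control array carried a background outlier flag, as did those of Casp6, Cycs, Htra2 and Ripk3 at 32 h. Without all spots flagged this way the difference between the class medians at 4 h was -0.026. It was 0.049 without the detection filter and 0.59 with the median over the probes of a gene in place of its brightest probe.

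**Figure D2:**
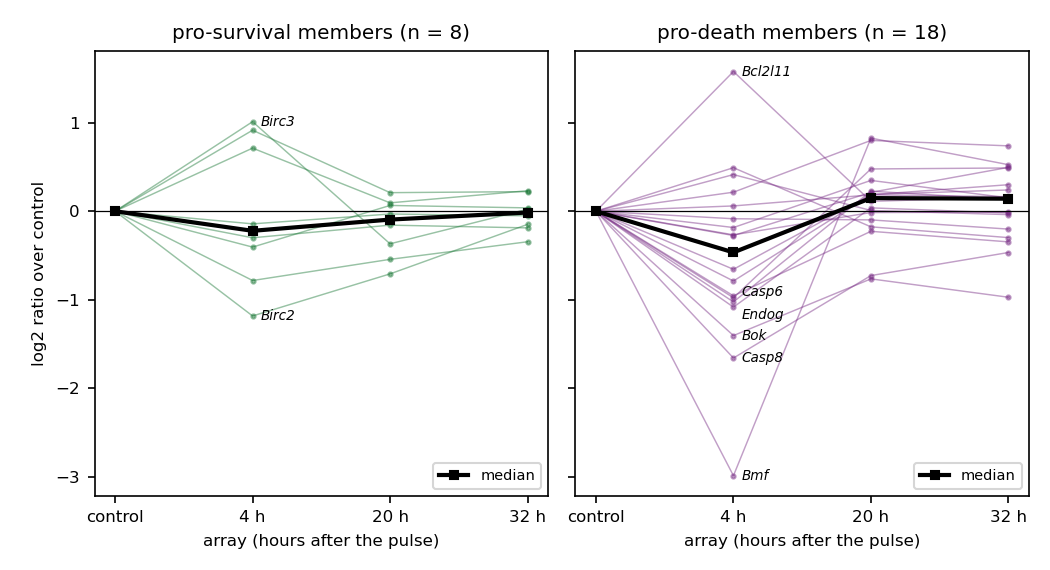
Log2 ratio over the control (y axis) on the 4 arrays (x axis), with 1 thin line per gene for the 8 pro-survival (left) and 18 detected pro-death members (right) and the class median in black. Names mark members past 2-fold at 4 h, and the pro-death median goes from -0.47 at 4 h to 0.15 at 20 h and 0.14 at 32 h.

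Of the BH3-only genes, Bcl2l11 and Bmf stood far apart at 4 h. Bcl2l11 encodes Bim, which binds every protective Bcl2 protein and can activate the pore-formers directly. The brightest Bcl2l11 probe had a level of -3.51 in the control, -1.93 at 4 h, -3.40 at 20 h and -3.36 at 32 h. The 4 h array alone was high, and the other 3 lay within their spot errors of each other. Its log2 ratio at 4 h was 1.58 ± 0.24, a 2.99-fold difference (1.05 with normexp), and the ratios were 0.11 ± 0.25 at 20 h and 0.16 ± 0.26 at 32 h. A second Bcl2l11 probe was dim on all 4 arrays, with no value well above background.

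The Bcl2l11 probe is shown because it reads the part of the transcript that makes the protein a BH3 protein. Its mm9 position in the annotation, chr2:127972893-127983988 on the plus strand, is far longer than the probe, so that it crosses an exon junction. The capitals mark the codons at the core of the BH3 motif.
Bcl2l11 A_51_P484880: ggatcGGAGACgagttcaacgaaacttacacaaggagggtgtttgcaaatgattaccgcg

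Bmf is a BH3-only protein known for its release from the actin motor machinery when cells lose attachment. Its level was -0.38 in the control, -3.36 at 4 h, 0.45 at 20 h and 0.15 at 32 h. The 4 h array was by far the lowest, also against 20 h and 32 h, where the control spot with its background flag plays no part. The log2 ratio was -2.99 ± 0.24 at 4 h, a 7.94-fold difference and the largest of any member, and it was 0.83 ± 0.21 at 20 h and 0.53 ± 0.21 at 32 h. With normexp the ratio at 4 h was -2.12. The probe lies at chr2:118354496-118354555 on the minus strand (mm9).

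Bad, which is held inactive by survival kinases, had levels of 3.82 in the control, 3.04 at 4 h, 4.01 at 20 h and 4.07 at 32 h. Its ratio was -0.79 ± 0.20 at 4 h, and its other probe gave -0.68 ± 0.21. Bid, which caspase-8 cleaves to link the receptor route to mitochondria, had 0.30, 0.36, 0.49 and 0.46. All 4 arrays of Bid lay within the spot error, and its ratio at 4 h, 0.060, turned negative under 4 of the 5 other scalings. Bmf and Bad were thus low at 4 h, while Bcl2l11 was high at 4 h only. At 20 h Bmf was 1.77-fold above the control, and Bad, with 0.19 ± 0.20, was within the spot error.

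The pore-formers differed from each other. Bak1 had levels of 2.78 in the control, 3.20 at 4 h, 2.79 at 20 h and 2.74 at 32 h. It was higher at 4 h by a log2 ratio of 0.41 ± 0.20 and within the spot error of the control later. The 4 h ratio of Bak1 was 0.053 with scaling by the median, 0.015 with the spike-in controls and 0.13 without scaling, all within the spot error. Bok, a relative of Bak1 and Bax, had 0.31 in the control, -1.10 at 4 h, -0.45 at 20 h and -0.66 at 32 h. The ratios of Bok were -1.40 ± 0.21, -0.76 ± 0.20 and -0.97 ± 0.21, so that all 3 arrays after the pulse were below the control.

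The initiator caspases were all below the control at 4 h. Casp8 (chr1:58901601-58901660 on the plus strand, mm9), the initiator of the receptor route, had 0.65 in the control, -1.004 at 4 h, -0.072 at 20 h and 0.19 at 32 h. Each later array was nearer to the control than the one before it, with log2 ratios of -1.66 ± 0.21, -0.73 ± 0.20 and -0.47 ± 0.20. Casp9, the initiator of the mitochondrial route, had 0.38, -0.60, 0.86 and 0.87. Its 4 h array was the lowest and the later ones the highest, with ratios of -0.98 ± 0.20, 0.48 ± 0.20 and 0.49 ± 0.20 in the same order. Casp2, an initiator tied to DNA damage, had 2.24, 2.05, 2.59 and 2.39, and its ratio at 4 h, -0.18 ± 0.20, was within the spot error. Casp6, the executioner among the members, had 2.09, 1.06, 2.31 and 2.22. Its log2 ratio was -1.02 ± 0.20 at 4 h and 0.23 ± 0.20 at 20 h.

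The proteins that act once mitochondria open showed no common direction. Cycs, cytochrome c, had levels of 4.69 in the control, 5.18 at 4 h, 4.51 at 20 h and 4.39 at 32 h. Its ratio was 0.49 ± 0.20 at 4 h and -0.30 ± 0.20 at 32 h, and its other detected probe gave 0.64 and -0.26. Among the 5 other scalings the 4 h ratio of the brightest Cycs probe was as low as 0.093. Apaf1, the scaffold of the apoptosome, had -2.17, -1.95, -1.37 and -1.43. The later arrays were its highest, with 0.80 ± 0.21 at 20 h and 0.74 ± 0.21 at 32 h. The ratio at 4 h, 0.22 ± 0.21, was negative under 3 of the 5 other scalings. Diablo and Htra2, which block inhibitors of apoptosis in the cytosol, had ratios of -0.085 and -0.27 at 4 h. Diablo had levels of 1.86, 1.78, 1.77 and 1.66 and Htra2 of 3.75, 3.48, 3.74 and 3.74. The second Htra2 probe gave -0.44, -0.26 and -0.25 at the 3 times, each ± 0.20, so that it was below the control later where the brightest one was not. The second Diablo probe gave -0.71 ± 0.21 at 4 h and -0.63 ± 0.21 at 32 h, further from the control than the brightest one.

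Aifm1 and Endog can leave mitochondria for the nucleus and act there without caspases, besides their work in respiration and mitochondrial DNA upkeep. Aifm1 had levels of 2.43 in the control, 1.78 at 4 h, 2.62 at 20 h and 2.73 at 32 h. Endog had -1.20, -2.28, -1.16 and -1.22. Both were lowest at 4 h, with log2 ratios of -0.66 ± 0.20 for Aifm1 and -1.08 ± 0.22 for Endog, and both were back within 1.5-fold of the control at 20 h and 32 h.

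In the death receptor complex, Fadd, the adaptor that brings in caspase-8, had -0.33 in the control, -1.28 at 4 h, -0.56 at 20 h and -0.67 at 32 h. Tradd, the adaptor of the TNF receptor, had 1.78, 0.78, 1.91 and 1.89. The 4 h array was the lowest for both, with log2 ratios of -0.96 ± 0.21 for Fadd and -0.997 ± 0.20 for Tradd, both just short of the 2-fold threshold. Ripk1, a kinase that serves survival and death signaling alike, had -0.15, 0.53, 0.11 and 0.099 and was higher at 4 h by 0.68 ± 0.20. Ripk3, the kinase of necroptosis, was dim, with -3.64, -3.91, -3.42 and -3.14, and its ratio of -0.27 ± 0.32 at 4 h was within the spot error. Casp8, Fadd and Tradd were thus lower at 4 h together with Casp6, while Ripk1 was higher.

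Among the protective Bcl2 proteins, Mcl1 and Bcl2l2 were higher at 4 h, Bcl2 was lower and Bcl2l1 hardly differed. Mcl1, a short-lived protein that holds Bak1 in check, had levels of 4.22 in the control, 4.93 at 4 h, 4.32 at 20 h and 4.45 at 32 h. Its ratio was 0.71 ± 0.20, and its other probe, with 1.21, 2.55, 1.59 and 1.33 on the same arrays, gave 1.34 ± 0.20 and so passed 2-fold. Bcl2l2 (Bcl-w) had -0.59, 0.33, -0.38 and -0.37, with ratios of 0.92 ± 0.21 and 0.56 ± 0.30 from its 2 probes at 4 h. For both genes the 4 h array was the highest with either probe.

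Bcl2, the founding member of the family, had -2.06 in the control, -2.84 at 4 h, -2.60 at 20 h and -2.41 at 32 h. All arrays after the pulse were below the control, with log2 ratios of -0.78 ± 0.22, -0.54 ± 0.22 and -0.34 ± 0.22. Bcl2l1 (Bcl-xL) had 3.44, 3.30, 3.41 and 3.39, and all ratios of this brightest probe were within the spot error. Its dim second probe gave 0.00056 ± 0.25 at 4 h, -0.27 ± 0.25 at 20 h and -0.34 ± 0.27 at 32 h.

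The inhibitors of apoptosis did not move together either. Xiap, which binds active caspases directly, had levels of 1.75, 1.35, 1.82 and 1.79 and a ratio of -0.41 ± 0.20 at 4 h. Birc2 (cIAP1), a ubiquitin ligase of Ripk1, had 0.40 in the control, -0.79 at 4 h, -0.31 at 20 h and 0.25 at 32 h. Its ratios of -1.18 ± 0.21, -0.71 ± 0.20 and -0.15 ± 0.20 came nearer to the control with each later array. Birc3 (cIAP2), its relative and a known target of NF-kappa-B, had -0.34, 0.67, -0.71 and -0.32 with its brightest probe. That probe gave 1.01 ± 0.20 at 4 h and -0.37 ± 0.20 at 20 h, but the other one had -1.56, -1.81, -1.72 and -1.59 and gave -0.25 ± 0.21 at 4 h.

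The probes of Birc3 and Cflar are shown because 1 gene gave opposite answers at 4 h depending on the probe. Cflar encodes c-FLIP, which resembles caspase-8 and keeps it in check, and its long and short isoforms end in different exons. The 2 Birc3 probes lie at chr9:7854409-7854468 and chr9:7856162-7856221 on the minus strand, so the one with the higher ratio lies downstream. The Cflar probes lie on the plus strand of chromosome 1 and are listed here from upstream to downstream, at 58770546, 58789994, 58810660 and 58811116 (start, mm9). 3 of them are given by their first 30 of 60 bases.
Birc3 A_52_P434055: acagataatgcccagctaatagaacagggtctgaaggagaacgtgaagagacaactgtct
Birc3 A_55_P1980287: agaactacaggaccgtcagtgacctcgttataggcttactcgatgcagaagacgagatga
Cflar A_52_P214612: gggacttgggaagttggagagctgactcct
Cflar A_55_P1983468: ctttcttgctgatgtataaattgcctcctt
Cflar A_55_P1983459: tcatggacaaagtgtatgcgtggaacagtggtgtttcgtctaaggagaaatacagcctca
Cflar A_52_P226929: gatttgacactgaatgtaacttgagactta

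The 4 Cflar probes split by position at 4 h. The upstream ones gave -0.30 ± 0.20 (levels of 1.62 in the control, 1.32 at 4 h, 1.47 at 20 h and 1.44 at 32 h) and -0.45 ± 0.21 (-1.31, -1.76, -1.48 and -1.62). The downstream ones gave 0.68 ± 0.22 (-2.44, -1.76, -2.56 and -2.83) and 0.74 ± 0.20 (-0.24, 0.50, -0.40 and -0.40). At 20 h all 4 were close, between -0.16 and -0.12, so the split was seen on the 4 h array. At that time the brightest probe of a gene was set against its other detected probes in 12 pairs of probes. 7 pairs were within 0.5 of each other on the log2 scale and 3 lay on opposite sides of the control by more than their spot errors, 1 of Birc3 and 2 of Cflar. All 12 pairs were within 0.5 at 20 h and at 32 h. Which transcript each probe reads was not tested.

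**Figure D3:**
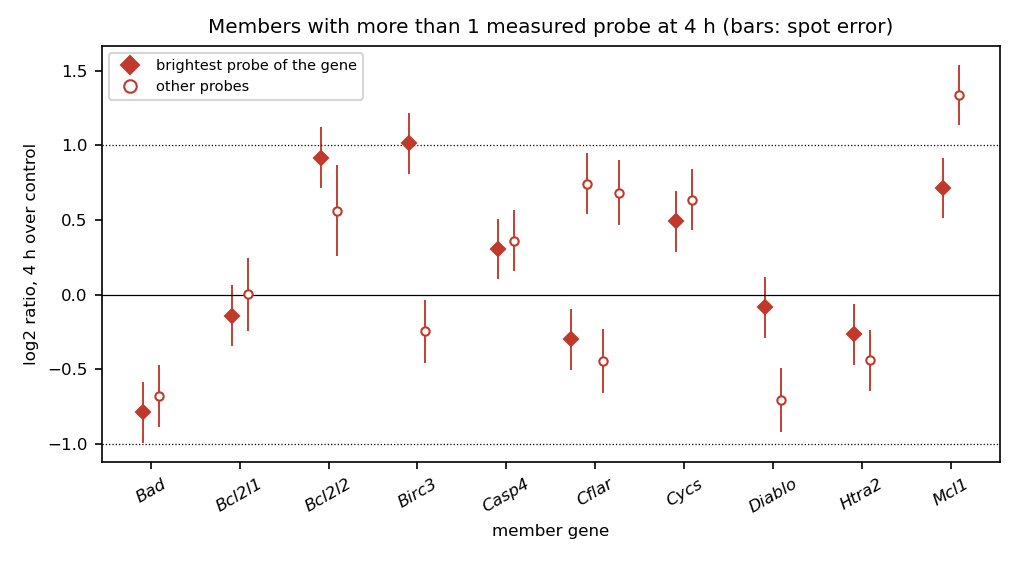
Log2 ratio at 4 h over the control (y axis) for each detected probe of the 10 members with more than 1 detected probe (x axis), with the brightest probe as a filled diamond, other probes as open circles and bars for the spot error. Birc3 and Cflar have probes on both sides of 0, and both Mcl1 probes are above 0 at 0.71 and 1.34.

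The inflammatory and differentiation caspases had their high values later. Casp4 (chr9:5336658-5336717 on the plus strand, mm9), the mouse caspase-11 that senses bacterial lipopolysaccharide in the cytosol, had 3.75 in the control, 4.05 at 4 h, 4.55 at 20 h and 4.72 at 32 h. The level was higher on each later array, with log2 ratios of 0.31 ± 0.20, 0.80 ± 0.20 and 0.97 ± 0.20. The second Casp4 probe, which overlaps the first almost fully, gave 0.36, 0.85 and 1.04. With scaling by the median or by the spike-in controls the 4 h ratio of Casp4 fell below 0. Casp12, a caspase of the endoplasmic reticulum, had -2.36, -3.02, -1.83 and -1.93, so that it was lowest at 4 h (-0.65 ± 0.22) and above the control at 20 h (0.54 ± 0.21) and 32 h (0.44 ± 0.22).

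Casp14, known from the cornified layer of skin, had levels of -4.20 in the control, -4.18 at 4 h, -2.04 at 20 h and -4.04 at 32 h. The 20 h array alone was high, and the other 3 were not far above the dimmest detected signal of an array, which lay between -5.11 and -4.73. The ratio of 20 h over the control was 2.16 ± 0.28, a 4.46-fold difference, and it was 1.24 with normexp. The ratio at 4 h was 0.014 ± 0.33 and at 32 h 0.16 ± 0.33, and the former was negative under all 5 other scalings. Of the 9 keratinocyte markers, Krt10 and Krt14 were detected on all arrays and Krt5 at 4 h and 20 h. Krt10 had levels of -0.26, -0.33, -0.31 and -0.49 on the 4 arrays and Krt14 of -3.21, -2.61, -3.49 and -3.42, so that neither was highest at 20 h. Krt5 had -4.29 at 4 h and -4.66 at 20 h, and the other 6 were detected on no array. The linear signals of the 9 markers, mostly that of Krt10, summed to 1.03, 1.08, 0.99 and 0.91 on the 4 arrays relative to the 75th percentile. Their part in the result was not tested. Casp14 was read by 1 spot per array.

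At 20 h Casp14 was the only member at least 2-fold higher, 3.23% of those tested beside 1.44% of all gene names, and none was 2-fold lower, beside 3.51%. Without bounds, 115 of the 15782 gene names detected on both of these arrays were higher and 344 lower. By 1.5-fold, 4 members were higher (Casp14, Bmf, Casp4 and Apaf1) and 3 lower (Bok, Casp8 and Birc2), beside 4.50% and 7.67% of all gene names. The median was -0.094 for the pro-survival and 0.15 for the pro-death members, a difference of -0.24 in the direction opposite to that at 4 h. With normexp this difference was -0.068, and the pro-death median was -0.016. At 32 h no member passed 2-fold either way, beside 2.24% and 2.77% of all gene names. Without bounds, 167 of the 15451 gene names detected on both of these arrays were higher and 251 lower. By 1.5-fold, Casp4 and Apaf1 were higher and Bok was lower, beside 6.02% and 7.12% of all gene names. The medians at 32 h were -0.015 for the pro-survival and 0.14 for the pro-death members, a difference of -0.16. Between the 2 later arrays Casp14 alone differed 2-fold (log2 ratio of 20 h over 32 h 1.999 ± 0.27), where 0.926% of all gene names were higher at 20 h and 2.06% at 32 h. Birc2, with -0.56 ± 0.20, came next.

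**Figure D4:**
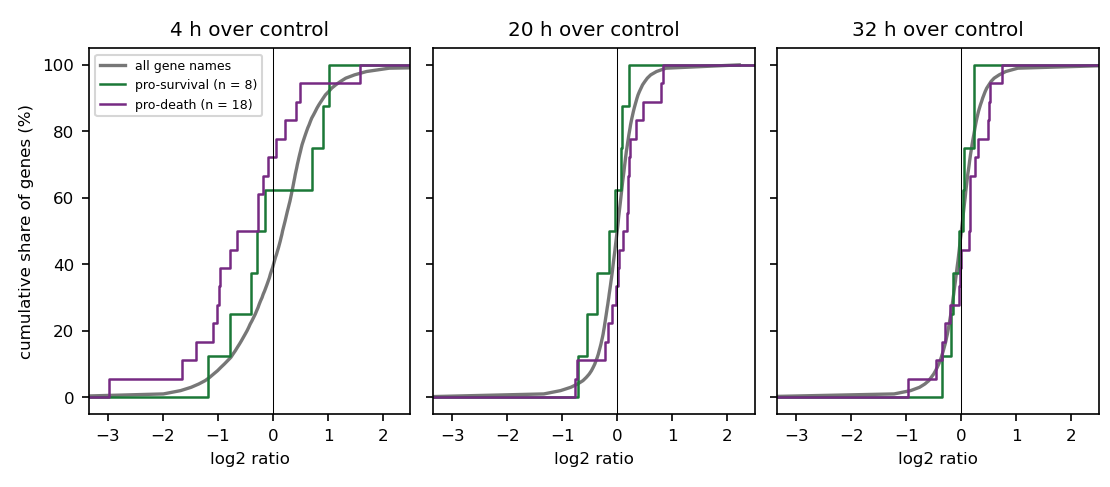
Cumulative share of genes in percent (y axis) against the log2 ratio over the control (x axis) at 4 h, 20 h and 32 h, for all gene names with a measured ratio (grey), the 8 pro-survival (green) and the 18 detected pro-death members (purple). At 4 h the purple steps lie left of the grey curve over most of their range (medians -0.47 and 0.17), and at 20 h and 32 h all 3 curves are steep around 0.

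The return to the control was counted from the members past 1.5-fold at 4 h. All 5 that had been higher (Bcl2l11, Birc3, Bcl2l2, Mcl1 and Ripk1) were within 1.5-fold of the control at both 20 h and 32 h. Of the 13 that had been lower, 9 were within 1.5-fold at both times, or 69.2%, and the others were Birc2, Bmf, Bok and Casp8. Of these, Bmf was above the control at 20 h (0.83). At 32 h 12 of the 13 were within 1.5-fold, all but Bok. Among all gene names, 84.8% of the 3179 that had been higher and 84.8% of the 2584 that had been lower were within 1.5-fold at both times. Bok was the member that stayed 1.5-fold below the control on all 3 arrays.

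Promoters were searched for 5 motifs in the 250 bases of RefSeq sequence (GRCm38.p6) before each start, on both strands. Bases after the start were not searched, and 31 of the 34 members had an entry. The FOXO site GTAAACA was found in 3.17% of all 32851 promoters and in those of Bcl2l11 and Casp4. The NF-kappa-B consensus was found in 3.90% of all promoters and in those of Casp4, Aifm1 and Bcl2l1. The E-box CACGTG was in 6.02% of all promoters and in those of Casp1 and Ripk3, the heat shock element core GAANNTTC in 6.69% and in that of Bad, and the antioxidant response element core TGACNNNGC in 10.2% and in those of Bcl2l1, Casp12, Casp14 and Hrk. A match is a run of letters and was not tested for binding. The promoters of Bcl2l11, the member with the highest ratio at 4 h, and Casp4, with the highest at 32 h, are shown up to the start, at chr2:128125788-128126037 and chr9:5308599-5308848, both on the plus strand. The capitals mark the FOXO match in the former, 227 bases upstream, and in the latter the NF-kappa-B consensus, 2 overlapping matches that begin 93 and 92 bases upstream.
Bcl2l11 promoter: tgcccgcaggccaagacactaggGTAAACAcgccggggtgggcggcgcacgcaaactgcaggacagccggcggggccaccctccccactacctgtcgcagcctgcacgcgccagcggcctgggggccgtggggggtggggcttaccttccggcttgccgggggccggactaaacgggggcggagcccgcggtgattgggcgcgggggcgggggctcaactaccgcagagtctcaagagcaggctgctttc
Casp4 promoter: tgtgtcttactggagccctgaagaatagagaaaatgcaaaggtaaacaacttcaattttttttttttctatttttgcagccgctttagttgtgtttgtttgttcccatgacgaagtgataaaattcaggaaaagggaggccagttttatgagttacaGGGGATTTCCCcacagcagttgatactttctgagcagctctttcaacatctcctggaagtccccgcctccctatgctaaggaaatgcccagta

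Other death genes were counted beside the members from a list of 58, of which 56 were on the array and 45 were detected on all 4 arrays. At 4 h, 46 could be tested, with a median log2 ratio of 0.18. Of these, 3 were at least 2-fold higher and 7 at least 2-fold lower, which is 6.52% and 15.2% beside 11.0% and 8.21% of all gene names. The higher ones were Bcl2l15, a lesser-known Bcl2 relative (2.36 ± 0.24), Tnfrsf10b, the mouse death receptor for TRAIL (2.34 ± 0.21), and Tnfaip3, the NF-kappa-B inhibitor A20 (1.03 ± 0.20).

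Tnfrsf10b had levels of -0.58 in the control, 1.76 at 4 h, -0.63 at 20 h and -0.45 at 32 h, so that the 4 h array alone was high. The lower ones at 4 h were Dfna5, a gasdermin that can form pores in the plasma membrane (-2.42 ± 0.20), Cyld, a deubiquitinase of Ripk1 (-1.60 ± 0.21), Cradd, the adaptor of caspase-2 (-1.58 ± 0.21), Bcl2l12 (-1.41 ± 0.21), Bnip3 (-1.08 ± 0.20), Dapk3 (-1.05 ± 0.25) and Bag4 (-1.02 ± 0.23). Dfna5 had 2.13, -0.29, 2.03 and 2.17 and was thus back at the control level at 20 h.

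At 20 h, Dedd2, a protein with a death effector domain, was at least 2-fold higher (1.02 ± 0.20), and Bcl2l14, detected in the control and not at 20 h, was lower by a bound of -1.03. Each is 2.17% of the 46 tested, beside 1.44% higher and 3.51% lower among all gene names. At 32 h Dedd2 was again higher (1.07 ± 0.20), after 0.97 ± 0.20 at 4 h, and no other gene of the list passed 2-fold. That is 2.17% of the 46 tested higher and 0% lower, beside 2.24% and 2.77% of all gene names. Between 20 h and 32 h none of the 45 tested differed 2-fold, beside 0.926% of all gene names higher at 20 h and 2.06% at 32 h.

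**Figure D5:**
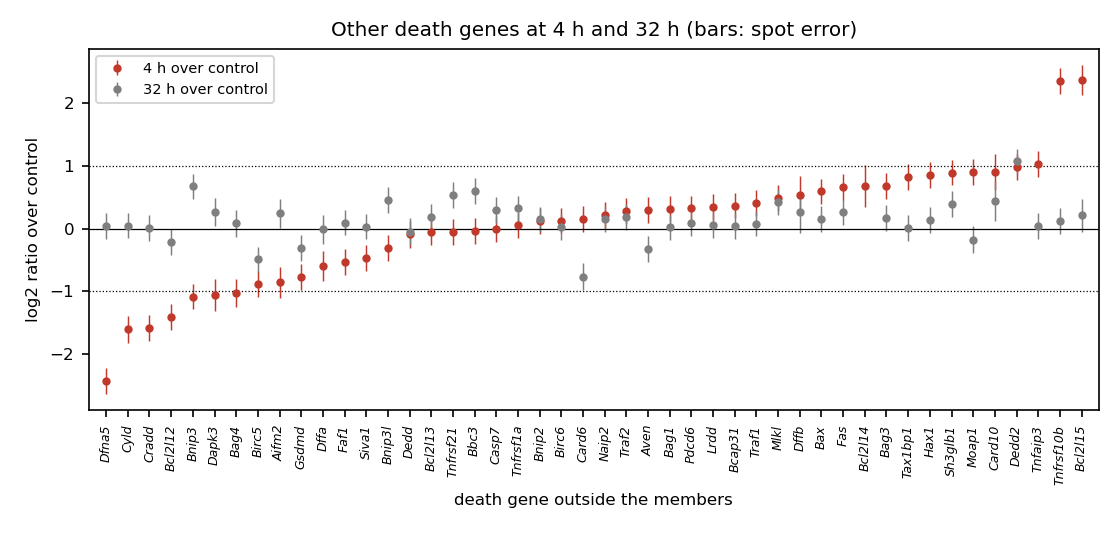
Log2 ratio over the control (y axis) at 4 h (red) and 32 h (grey) for the death genes outside the members with a measured ratio at 4 h (x axis, ordered by that ratio), with bars for the spot error and dotted lines at 2-fold. At 4 h the values run from -2.42 (Dfna5) to 2.36 (Bcl2l15), and at 32 h Dedd2 (1.07) alone is past 2-fold.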

How the data were processed

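RNA of NIH-3T3:Per2-Luc fibroblasts was labeled with Cy3 and hybridized to 4 one-color Agilent arrays, 1 per condition. The authors deposited, per the file headers, intensities of each spot from Agilent Feature Extraction 10.7.3.1, with background subtracted, together with flags for detection and outliers. A second deposited table holds these intensities after division by a constant of each array and served as an alternative.

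From the deposited intensities, spots flagged as outliers by their feature pixels were left out (125 to 161 per array, none saturated), log2 signals of replicate spots were averaged to 39429 probes, and each array was centered on its 75th percentile. Detection required the flag for signals well above background in 50% or more of a probe's spots. Ratios were measured between arrays that both detected the probe. Where 1 did, a bound was taken against the lowest detected signal of the other array. A gene was given by its probe with the highest mean level over the arrays, and calls used 2-fold. Class medians used measured ratios. The errors, about 10.1% of the signal, are those of the scanner software.

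The members, classes and lists were chosen with earlier results of these data known. All members are named, and other death genes where they passed 2-fold, except for an item withheld for evaluation that is not reported here, while the marker lists held fibroblast, macrophage, keratinocyte and endothelial genes. Of the 7 macrophage markers 4 were detected on all arrays. The summed linear signal of the list, mostly that of Itgam, was 23.6 in the control and 35.3, 14.3 and 16.1 at 4 h, 20 h and 32 h. Of the 5 endothelial markers 2 were detected on all arrays, and the sums, mostly of Kdr, were 3.23, 4.38, 4.24 and 4.14. The cells were a cultured fibroblast line, and the source of these signals was not tested. Fibroblast markers summed to 658.8, 572.9, 589.7 and 601.1.

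The alternatives were 5 other scalings, normexp background correction in limma 3.58.1 under R 4.3.3 (offset 50), other detection rules, flagged spots kept, other choices of probe, thresholds of 1.5-fold and 3-fold, narrower and wider pro-death classes, and the deposited table. The SAM analysis of the methods was not repeated, since each group had 1 array, nor was the annotation enrichment. Positions of probes are those of the array annotation (mm9), and promoter sequences are from RefSeq (GRCm38.p6). Calculations used Python 3.11.15 with numpy 2.4.6 and pandas 2.3.3, and the steps were tested on simulated data.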

Additional observations from a re-analysis of the deposited data

Results flagged for a closer look

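Several members lay on opposite sides of the control at different times by more than their spot errors. With 1 array per condition these differences were not tested, and all times share the control array. Bmf had a log2 ratio of -2.99 at 4 h, 0.83 at 20 h and 0.53 at 32 h. Casp9 had -0.98 at 4 h, 0.48 at 20 h and 0.49 at 32 h, and Casp12 had -0.65, 0.54 and 0.44. Casp6 had -1.02 at 4 h and 0.23 at 20 h. Bad had -0.79 at 4 h and 0.24 at 32 h, and Aifm1 had -0.66 and 0.30. In the other order, Birc3 had 1.01 at 4 h and -0.37 at 20 h with its brightest probe, and Cycs had 0.49 at 4 h and -0.30 at 32 h. The Cycs spot at 32 h and the Bmf spot of the control carried a background outlier flag.

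A further signal came from probes that were not used for the value of their gene. The second Mcl1 probe had a log2 ratio of 1.34 at 4 h, past 2-fold where the brightest probe was not. The second Casp4 probe had 1.04 at 32 h, against 0.97 for the brightest.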

How the results depend on the processing

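No paired analysis was possible because each condition had 1 array, and for the same reason no replicate could be left out. Members at least 2-fold higher at 4 h (2) numbered 1 with scaling by the median, the 75th percentile of the detected probes, the spike-in controls or none. They also numbered 1 with normexp and with the second brightest probe (11.6% of all gene names), 5 at 1.5-fold and 0 at 3-fold. The shares of all gene names at 3-fold were 4.41% higher and 2.63% lower. Those lower at 4 h (6) numbered 13 with the median (14.8% of all gene names) or spike-in controls (15.8%), 11 without scaling (12.9%), 5 with normexp (5.02%), 13 at 1.5-fold and 2 at 3-fold. At 20 h, members higher (1) numbered 3 with the spike-in controls (2.29% of all gene names), 4 without scaling (3.41%) and 4 at 1.5-fold, and members lower (0) numbered 3 at 1.5-fold. At 32 h, members higher (0) numbered 1 with the spike-in controls (3.13% of all gene names) and without scaling (3.31%). Without the detection filter the number was 1 (4.33%), namely Bik, which was detected on no array. It was also 1 with the flag for positive and significant signals (5.74%), the second brightest probe (2.27%) and the median of the probes, for which no share was computed. At 1.5-fold 2 members were higher at 32 h, and members lower (0) numbered 1. Between 20 h and 32 h (1), 2 differed without the detection filter or with the flag for positive and significant signals. Without the filter, 2.43% of all gene names were higher at 20 h and 4.55% at 32 h. With that flag the shares were 3.21% and 6.01%.

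The class difference at 4 h (0.24) was 0.59 with the median of the probes, 0.56 with the second brightest probe and 0.049 without the detection filter. It was -0.026 when spots with a background flag were left out too, since Bmf and Bcl2l1 then had no control value. The class difference at 20 h (-0.24) was -0.068 with normexp. The pro-survival median at 4 h (-0.22) was 0.060 with the median of the probes, and Birc3 at 4 h (1.01) was -0.25 with its second brightest probe. With normexp, Bcl2l11 at 4 h (1.58) was 1.05, Bmf (-2.99) was -2.12, Endog (-1.08) was -0.77, and Casp14 at 20 h (2.16) was 1.24. Leaving out background-flagged spots, entering bounds in the medians and removing a trend with probe GC content were added after the data were seen. Except where a threshold or probe choice is named, the causes of these shifts were not tested. Values near the background, such as those of Casp14, Bcl2l11 and Ripk3, rest on dim spots, and their errors cover the spot only.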
